A study of Danio rerio with 6 samples.

Results

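Mitochondrial fatty acid oxidation was followed through 10 zebrafish (Danio rerio) genes: the carnitine palmitoyltransferase genes cpt1aa, cpt1ab, cpt1b and cpt2, the matrix enzyme genes acadm, acadvl, hadhaa and hadhb, the electron transfer gene etfdh, and the coactivator gene ppargc1a. They were picked by symbol from the 25859 genes of the count files. A direct match of symbols gave 9 genes, and cpt1aa was reached through its RefSeq synonym, as the gene with the symbol CPT1A. Symbols are printed below as the gene table gives them, in part in the capitals of human symbols. The genes were read in 3 pools of hspd1-/- larvae and 3 pools of hspd1+/+ larvae at 5 days post fertilization (dpf). Each pool held the bodies of 5 larvae of 1 genotype, whose parents were heterozygous for a knockout of hspd1, the gene for HSP60, the chaperonin of the mitochondrial matrix. All larvae were raised in the same buffer, and their tail fin tips had been cut off for genotyping, so the libraries stand for the rest of the body.

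Long-chain fatty acids enter mitochondria as carnitine esters. CPT1 on the outer membrane makes the ester, a carrier of the inner membrane brings it in, and CPT2 turns it back into acyl-CoA. Acyl-CoA dehydrogenases, the trifunctional protein and further enzymes then shorten the chain in rounds, and the electrons of the first step pass through the electron transfer flavoprotein (ETF) and its dehydrogenase to ubiquinone. Peroxisomes run a parallel pathway for very long and branched chains. In vertebrates muscle, heart, liver and kidney are the main users, and PPAR nuclear receptors with the coactivator PGC-1 alpha are known to drive the genes of the pathway.

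Total estimated counts ran from 18517874 to 20331675 per pool. The targeted gene HSPD1 (ENSDARG00000056160) stood at 73.4, 67.9 and 82.3 CPM (reads relative to library size) in knockout pools 1, 2 and 3, against 124, 133 and 132 CPM in control pools 1, 2 and 3, so its transcript was lower in every pool labelled knockout but was not absent. Markers of muscle, heart, liver, intestine and kidney were present in all pools. All differences below are hspd1-/- against hspd1+/+ with n = 3 pools each, as log2 fold changes from edgeR's quasi-likelihood test with Benjamini-Hochberg adjustment over 21602 genes. In pools of whole larvae, fewer cells of a type and less RNA per cell cannot be told apart.

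Of the 10 genes, 1 rose in the knockout pools, cpt1ab, and none fell. All 10 passed the filter on low counts. For comparison, 4.01% of all genes tested passed an adjusted p of 0.05, 1.47% higher and 2.54% lower. At an unadjusted p under 0.05, 2 of the 10 were higher (6.79% of all genes) and 1 lower (8.81% of all genes), and both DESeq2 and limma-voom called 1 gene higher and 0 lower. The median log2 fold change of the 10 genes was 0.05, against −0.01 over all genes tested. The groups did not overlap for 3 of the 10 genes (cpt1ab, CPT1B and CPT2), and 21.4% of all genes tested had no overlap. Each of the 10 genes was backed by 241 to 4031 estimated reads in every pool.

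**Figure D1:**
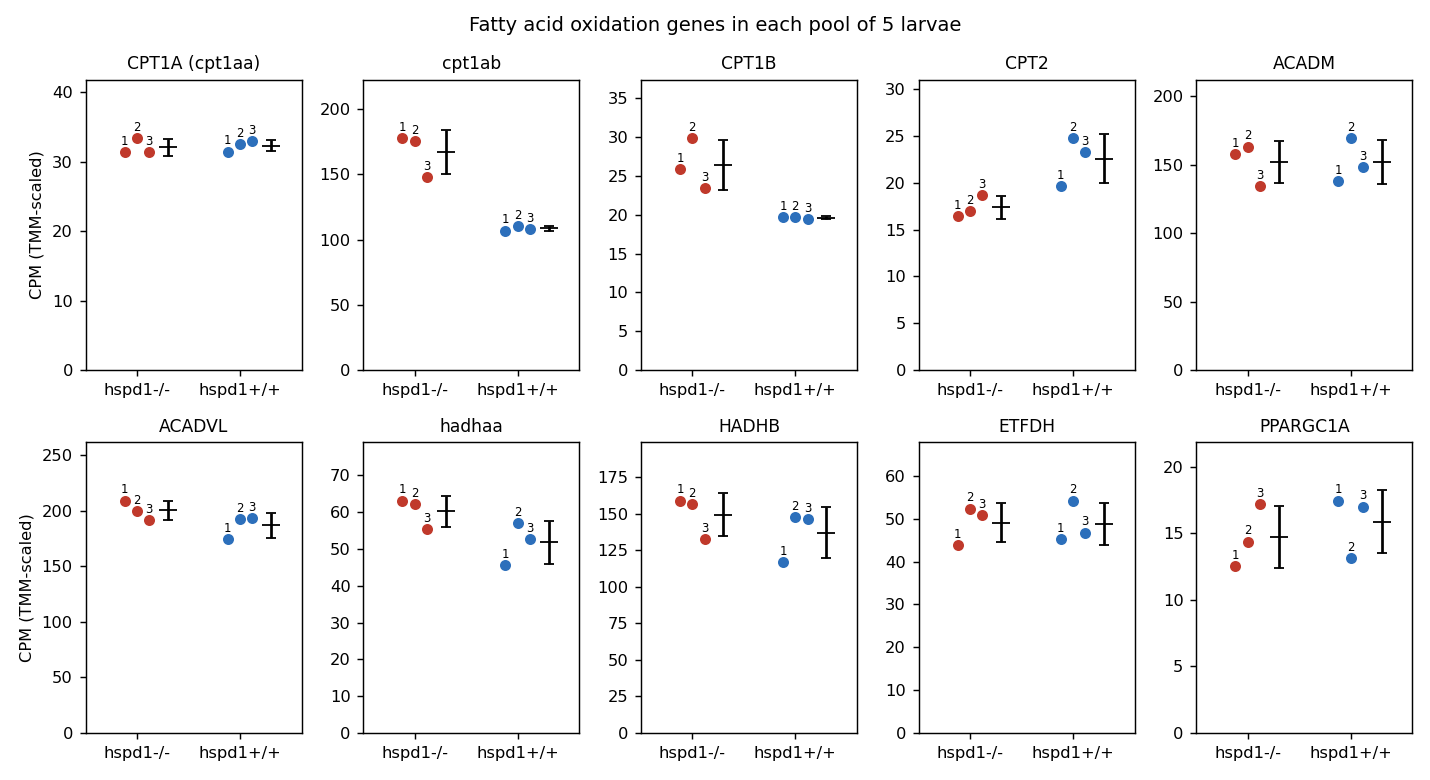
TMM-scaled CPM of the 10 genes in each pool (points, numbered by pool; vertical axes start at 0), with the mean and SD of each genotype in black. The 3 knockout pools lie above the 3 controls for cpt1ab (148 to 178 CPM against 107 to 111 CPM) and CPT1B and below them for CPT2, and the groups overlap for the other genes.

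Of the 4 carnitine palmitoyltransferase genes, cpt1ab rose and the other three did not pass. The gene cpt1ab (ENSDARG00000062054), which codes for a CPT1 of the type known from liver in mammals, which commits long-chain acyl groups to the mitochondrion, stood at 178, 175 and 148 CPM in knockout pools 1, 2 and 3, against 107, 111 and 108 CPM in control pools 1, 2 and 3. Every knockout pool was above every control, and the controls lay close together. It averaged 167 ± 16.7 CPM in knockout pools and 108 ± 1.91 CPM in control pools (SD, n = 3 each), a log2 fold change of 0.62 (SE 0.11, 95% interval 0.38 to 0.86, edgeR adjusted p = 0.00792), or 1.54-fold. The call was lost without control pool 3 (edgeR adjusted p = 0.0525, log2 fold change 0.63) and without knockout pool 2 (edgeR adjusted p = 0.0511, log2 fold change 0.59).

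Its paralog CPT1A (cpt1aa, ENSDARG00000059770) had 31.4, 33.4 and 31.4 CPM in knockout pools 1, 2 and 3, against 31.5, 32.5 and 32.9 CPM in control pools 1, 2 and 3. The groups overlapped within a narrow range, and the log2 difference of −0.01 had a 95% interval of −0.22 to 0.20 (edgeR adjusted p = 0.969). CPT1B (ENSDARG00000058285), the form known from muscle in mammals, had 25.9, 29.9 and 23.4 CPM in knockout pools 1, 2 and 3, against 19.7, 19.7 and 19.4 CPM in control pools 1, 2 and 3. All 3 knockout pools were higher, but the log2 difference of 0.43 (SE 0.11, 95% interval 0.18 to 0.68) missed the threshold, at an edgeR adjusted p = 0.0687. It passed with upper-quartile scaling (edgeR adjusted p = 0.041) and without knockout pool 3 (0.0461). It did not pass when any other single pool was left out (edgeR adjusted p = 0.108 to 0.252) or with the replicate number as a block (0.153). DESeq2 (adjusted p = 0.0667) and limma-voom (0.0843) did not call it either. CPT2 (ENSDARG00000038618), the inner membrane transferase, stood at 16.4, 16.9 and 18.7 CPM in knockout pools 1, 2 and 3, against 19.6, 24.8 and 23.2 CPM in control pools 1, 2 and 3. All knockout pools were lower here, with a log2 difference of −0.38 (SE 0.12, 95% interval −0.64 to −0.12) and an edgeR adjusted p = 0.13, short of the threshold.

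Because the balance of 2 genes within a library does not depend on how libraries are scaled, 4 ratios of reads were compared between pools. The log2 ratio of cpt1aa over cpt1ab was −2.50, −2.39 and −2.24 in knockout pools 1, 2 and 3, against −1.76, −1.76 and −1.71 in control pools 1, 2 and 3, a difference of −0.63. No knockout pool reached the control range, so that the share of cpt1ab in the reads of this pair was higher in each. The log2 ratio of cpt1b over cpt2 averaged 0.60 ± 0.25 in knockout pools and −0.19 ± 0.18 in control pools (SD, n = 3 each), and that of cpt1aa over cpt2 averaged 0.89 ± 0.12 in knockout pools and 0.52 ± 0.14 in control pools. The log2 ratio of hadhaa over hadhb differed least of the 4, at −1.31 ± 0.04 in knockout pools and −1.40 ± 0.06 in control pools. Knockout and control pools did not overlap in any of the 4 ratios. No share over other gene pairs was computed for comparison. The ratios of carnitine palmitoyltransferase genes share cpt1aa and cpt2, and cpt1ab, CPT1B and CPT2 already did not overlap by themselves. Those ratios are thus not independent results. The ratio of hadhaa over hadhb shares no gene with them, and the groups overlapped for each of its genes alone. Its nearest values were −1.33 in knockout pool 2 and −1.36 in control pool 1. Each ratio gave p = 0.1 in an exact two-sided permutation test, also after adjustment over the 4, which is the smallest p that 3 against 3 pools allow. The sequences of the cpt1 genes were not compared here, so how the counting divided reads among these paralogs is uncertain.

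**Figure D2:**
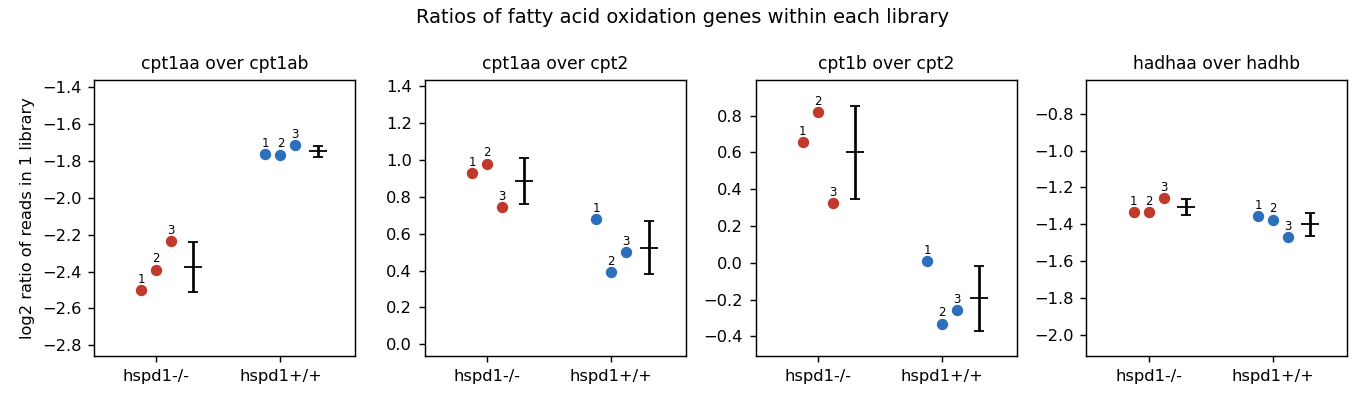
Log2 ratio of reads of 2 genes within each library (points, numbered by pool; all panels span the same range of log2 units), with mean and SD per genotype in black. The cpt1aa over cpt1ab ratio is −2.50 to −2.24 in knockout pools and −1.76 to −1.71 in control pools, while the hadhaa over hadhb ratios lie near each other.

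None of the 4 matrix enzyme genes passed the test, in edgeR, DESeq2 or limma-voom, and 0 of them had an unadjusted p under 0.05. ACADVL (ENSDARG00000016687), the very long-chain acyl-CoA dehydrogenase of the inner membrane, had 209, 200 and 191 CPM in knockout pools 1, 2 and 3, against 174, 192 and 193 CPM in control pools 1, 2 and 3. ACADM (ENSDARG00000038900), the medium-chain dehydrogenase, had 158, 163 and 135 CPM in knockout pools 1, 2 and 3, against 138, 170 and 148 CPM in control pools 1, 2 and 3. Both pairs of groups overlapped. The log2 differences were 0.10 for ACADVL (95% interval −0.12 to 0.33, edgeR adjusted p = 0.69) and −0.00174 for ACADM (95% interval −0.27 to 0.26, edgeR adjusted p = 0.996).

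The trifunctional protein, which carries out the later steps of a round on long chains, is built from alpha and beta subunits. The alpha subunit gene hadhaa (ENSDARG00000057128) had 63.2, 62.1 and 55.5 CPM in knockout pools 1, 2 and 3, against 45.6, 57.0 and 52.7 CPM in control pools 1, 2 and 3. The beta subunit gene HADHB (ENSDARG00000102055) had 159, 157 and 133 CPM in knockout pools 1, 2 and 3, against 117, 148 and 146 CPM in control pools 1, 2 and 3. In both genes 2 knockout pools lay above all controls and knockout pool 3 lay among them. The log2 differences were 0.22 (95% interval −0.04 to 0.47, edgeR adjusted p = 0.404) and 0.13 (95% interval −0.15 to 0.40, edgeR adjusted p = 0.687).

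ETFDH (ENSDARG00000038834), which hands electrons from the flavoprotein to ubiquinone, had 43.9, 52.4 and 50.9 CPM in knockout pools 1, 2 and 3, against 45.2, 54.2 and 46.7 CPM in control pools 1, 2 and 3. The groups overlapped throughout, with a log2 difference of 0.01 (95% interval −0.25 to 0.27, edgeR adjusted p = 0.98). These 5 enzyme genes shared a pattern between pools of the same genotype, which was not particular to them. Control pool 1 was the lowest control for 5 of 5, and knockout pool 3 was the lowest knockout for 4 of 5. The summed level of 21 other genes of mitochondrial oxidation was lowest in the same pools (924 CPM in control pool 1, 925 CPM in knockout pool 3). So were the sums of hepatocyte and of enterocyte markers. The fast muscle sum was instead lowest in control pool 2 and knockout pool 2. No share over all genes was computed. The summed level of the 4 matrix enzyme genes was 514 to 589 CPM in knockout pools and 475 to 567 CPM in control pools, so pools of a genotype differed by more than the genotypes did on average.

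PPARGC1A (ENSDARG00000067829), the gene of PGC-1 alpha, had 12.5, 14.4 and 17.2 CPM in knockout pools 1, 2 and 3, against 17.5, 13.2 and 17.0 CPM in control pools 1, 2 and 3. The groups overlapped, with knockout pool 1 below and control pool 1 above all pools of the other genotype. Its log2 difference of −0.11 (SE 0.15, 95% interval −0.45 to 0.22, edgeR adjusted p = 0.781) is the least precise of the 10. Of the 9 genes that did not pass, the 7 other than CPT1B and CPT2 had 95% intervals that together reached from −0.45 to 0.47, or from 0.734-fold to 1.39-fold.

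**Figure D3:**
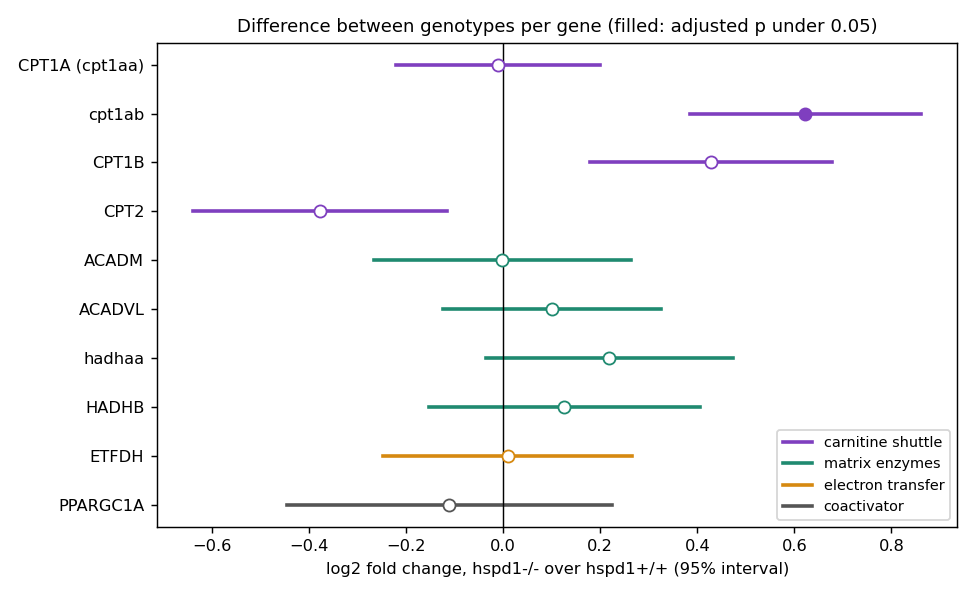
Log2 fold change of each gene, hspd1-/- over hspd1+/+, with its 95% interval from the edgeR test, coloured by role. The one filled point is cpt1ab at 0.62 (adjusted p = 0.00792), and the intervals of CPT1B and CPT2 lie on opposite sides of 0 although neither passed after adjustment over all genes.

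Among the genes whose levels over the 6 pools were most like cpt1ab (log CPM, genes of at least 5 CPM) were cyp2aa3, a cytochrome P450 (Pearson r = 0.997), and KCNK3, a potassium channel (0.994). Like cpt1ab, they had their lowest knockout level in knockout pool 3. The genes most like CPT1B were dnaaf9 (r = 0.995), RTN4R (0.995) and SLC30A10 (0.991), which were highest in knockout pool 2 and were not called (edgeR adjusted p = 0.397, 0.483 and 0.134). With 6 pools in 2 genotypes, these correlations rest largely on the difference between genotypes and are given as a description.

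Of 21 other genes listed under mitochondrial oxidation, 1 fell and none rose in edgeR's test, against 2.54% of all genes lower and 1.47% higher. At an unadjusted p under 0.05, 1 was higher (6.79% of all genes) and 4 lower (8.81% of all genes). DESeq2 and limma-voom each called 0 higher and 1 lower. The median log2 fold change was −0.05, with 11 genes below 0 and 10 above, and the median lay between −0.08 and 0.02 when 1 pool was left out. The gene that fell was ACAD11, an acyl-CoA dehydrogenase that in mammals acts on hydroxylated fatty acids, with 10.1, 11.9 and 9.93 CPM in knockout pools 1, 2 and 3, against 15.8, 22.05 and 19.4 CPM in control pools 1, 2 and 3 (log2 fold change −0.84, SE 0.14, edgeR adjusted p = 0.00733). It passed in every fit that left out 1 pool. The compartment in which its protein acts was not tested.

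SLC25A20, the carrier that moves acylcarnitines across the inner membrane between CPT1 and CPT2, had 40.0, 44.9 and 40.6 CPM in knockout pools 1, 2 and 3, against 48.7, 61.3 and 53.8 CPM in control pools 1, 2 and 3. Its knockout pools were all lower, as for CPT2, but the log2 difference of −0.38 (95% interval −0.64 to −0.13) was not called (edgeR adjusted p = 0.111). The second alpha subunit gene HADHA (ENSDARG00000060594) averaged 119 ± 5.58 CPM in knockout pools and 115 ± 12.3 CPM in control pools (SD, n = 3 each). The flavoprotein subunit genes ETFA and ETFB had log2 differences of 0.14 and 0.05. The dehydrogenase genes ACADS, ACADL and HADH, for short-chain, long-chain and hydroxyacyl substrates, had −0.05, −0.13 and −0.22. None of these 6 passed (edgeR adjusted p = 0.516 to 0.895). MLYCD, which removes the CPT1 inhibitor malonyl-CoA, varied widely, with 1.76, 5.17 and 4.36 CPM in knockout pools 1, 2 and 3, against 1.22, 3.00 and 1.96 CPM in control pools 1, 2 and 3 (log2 difference 0.88, edgeR adjusted p = 0.318).

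**Figure D4:**
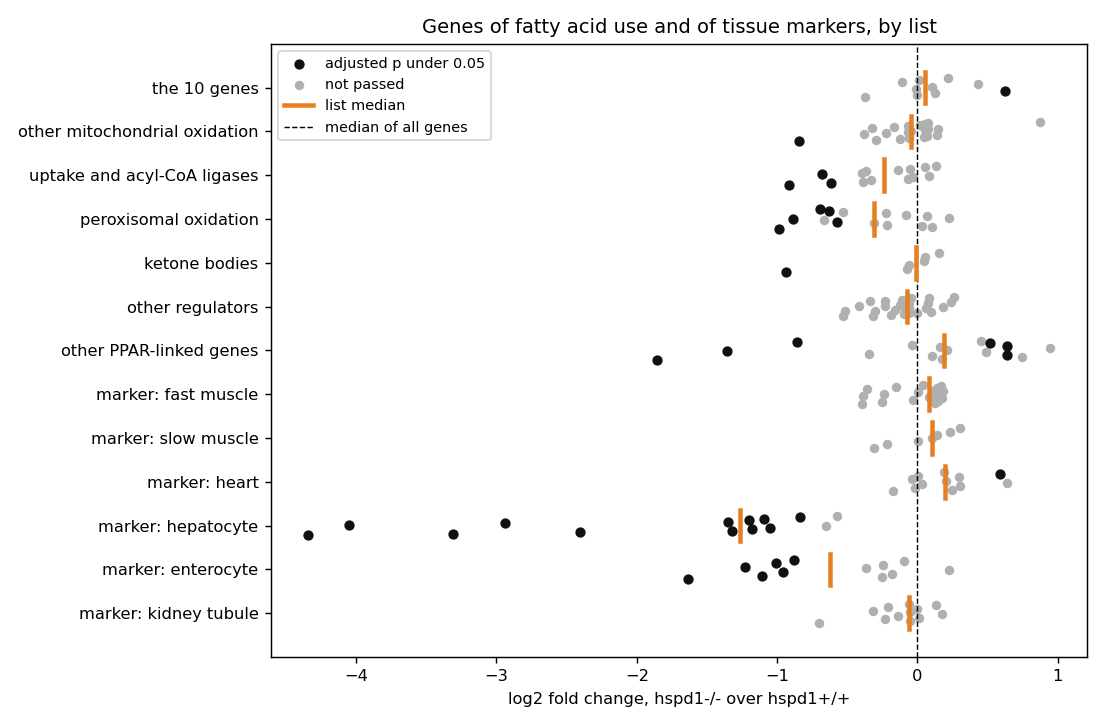
Log2 fold change (hspd1-/- over hspd1+/+) of every tested gene of each list, black where the adjusted p was under 0.05, with the list median as an orange bar and the median of all genes as a dashed line. Mitochondrial oxidation lies around 0 (medians 0.05 and −0.05), peroxisomal oxidation and uptake lie lower (−0.31 and −0.24), and hepatocyte markers lie lowest (−1.26).

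Of 15 genes of peroxisomal oxidation, 5 fell and none rose in edgeR's test, against 2.54% of all genes lower, and the list's median stood at −0.31 on the log2 scale. That median was −0.18 when control pool 2 was left out. At an unadjusted p under 0.05, 8 were lower (8.81% of all genes) and 0 higher, and DESeq2 and limma-voom each called 5 lower and 0 higher. EHHADH, the bifunctional enzyme that hydrates and dehydrogenates in the peroxisome, had 7.52, 8.47 and 8.09 CPM in knockout pools 1, 2 and 3, against 14.0, 18.8 and 15.1 CPM in control pools 1, 2 and 3 (log2 fold change −0.99, SE 0.14, edgeR adjusted p = 0.00227). The gene scp2a, which codes for a sterol carrier protein with thiolase activity in mammals, had 88.9, 83.8 and 69.7 CPM in knockout pools 1, 2 and 3, against 133, 173 and 144 CPM in control pools 1, 2 and 3 (log2 fold change −0.89, edgeR adjusted p = 0.00312). In EHHADH and scp2a each knockout pool lay well below each control. The paralog scp2b, named after its values were seen, averaged 21.4 CPM in knockout pools and 18.3 CPM in control pools (log2 difference 0.22, edgeR adjusted p = 0.473).

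ACOX3, an acyl-CoA oxidase for branched chains, fell by 0.70 on the log2 scale (SE 0.12, edgeR adjusted p = 0.00943). ACAA1, the peroxisomal thiolase, fell by 0.63 (SE 0.14, edgeR adjusted p = 0.0301). HSD17B4, the other bifunctional enzyme, named after its values were seen, fell by 0.57 (SE 0.13, edgeR adjusted p = 0.0306). The number of peroxisomal genes that fell was 3 without control pool 2 or knockout pool 3. ACAA1 was not called when any of control pools 2 and 3 and knockout pools 2 and 3 was left out (edgeR adjusted p = 0.116 to 0.147), nor with upper-quartile scaling (0.0531) or the replicate number as a block (0.0843). HSD17B4 was not called without control pool 1 (edgeR adjusted p = 0.0584), control pool 2 (0.14), knockout pool 1 (0.0838) or knockout pool 3 (0.0954).

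Of 14 genes of fatty acid uptake and activation, 3 fell and none rose in edgeR's test, against 2.54% of all genes lower. Their median log2 fold change was −0.24. At an unadjusted p under 0.05, 7 were lower (8.81% of all genes) and 0 higher, and DESeq2 and limma-voom each called 3 lower and 0 higher. The acyl-CoA synthetase gene acsl1b had 59.0, 66.9 and 62.5 CPM in knockout pools 1, 2 and 3, against 93.6, 102 and 93.7 CPM in control pools 1, 2 and 3 (log2 fold change −0.62, SE 0.10, edgeR adjusted p = 0.00561). Its paralog ACSL1 (taken as acsl1a, named after its values were seen) averaged 72.3 CPM in knockout pools and 69.5 CPM in control pools (log2 difference 0.06, edgeR adjusted p = 0.827). SLC27A4, a fatty acid transport protein, averaged 12.6 ± 2.57 CPM in knockout pools and 23.7 ± 2.00 CPM in control pools (SD, n = 3 each; log2 fold change −0.91, edgeR adjusted p = 0.00615). CD36, a fatty acid receptor of the cell surface, averaged 90.5 ± 12.1 CPM in knockout pools and 145 ± 15.5 CPM in control pools (log2 fold change −0.68, edgeR adjusted p = 0.0134). CD36 did not pass without control pool 2 (edgeR adjusted p = 0.0743) or control pool 3 (0.0547).

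Among 6 genes of ketone body metabolism 1 fell, against 2.54% of all genes lower. It was oxct1b, a transferase that activates acetoacetate, with 35.9, 30.5 and 26.3 CPM in knockout pools 1, 2 and 3, against 51.6, 64.4 and 61.3 CPM in control pools 1, 2 and 3 (log2 fold change −0.93, SE 0.14, edgeR adjusted p = 0.00279). Its paralog oxct1a, named after its values were seen, averaged 71.7 CPM in knockout pools and 69.1 CPM in control pools (log2 difference 0.05, edgeR adjusted p = 0.851). No other gene of the list passed in edgeR, DESeq2 or limma-voom, or had an unadjusted p under 0.05.

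**Figure D5:**
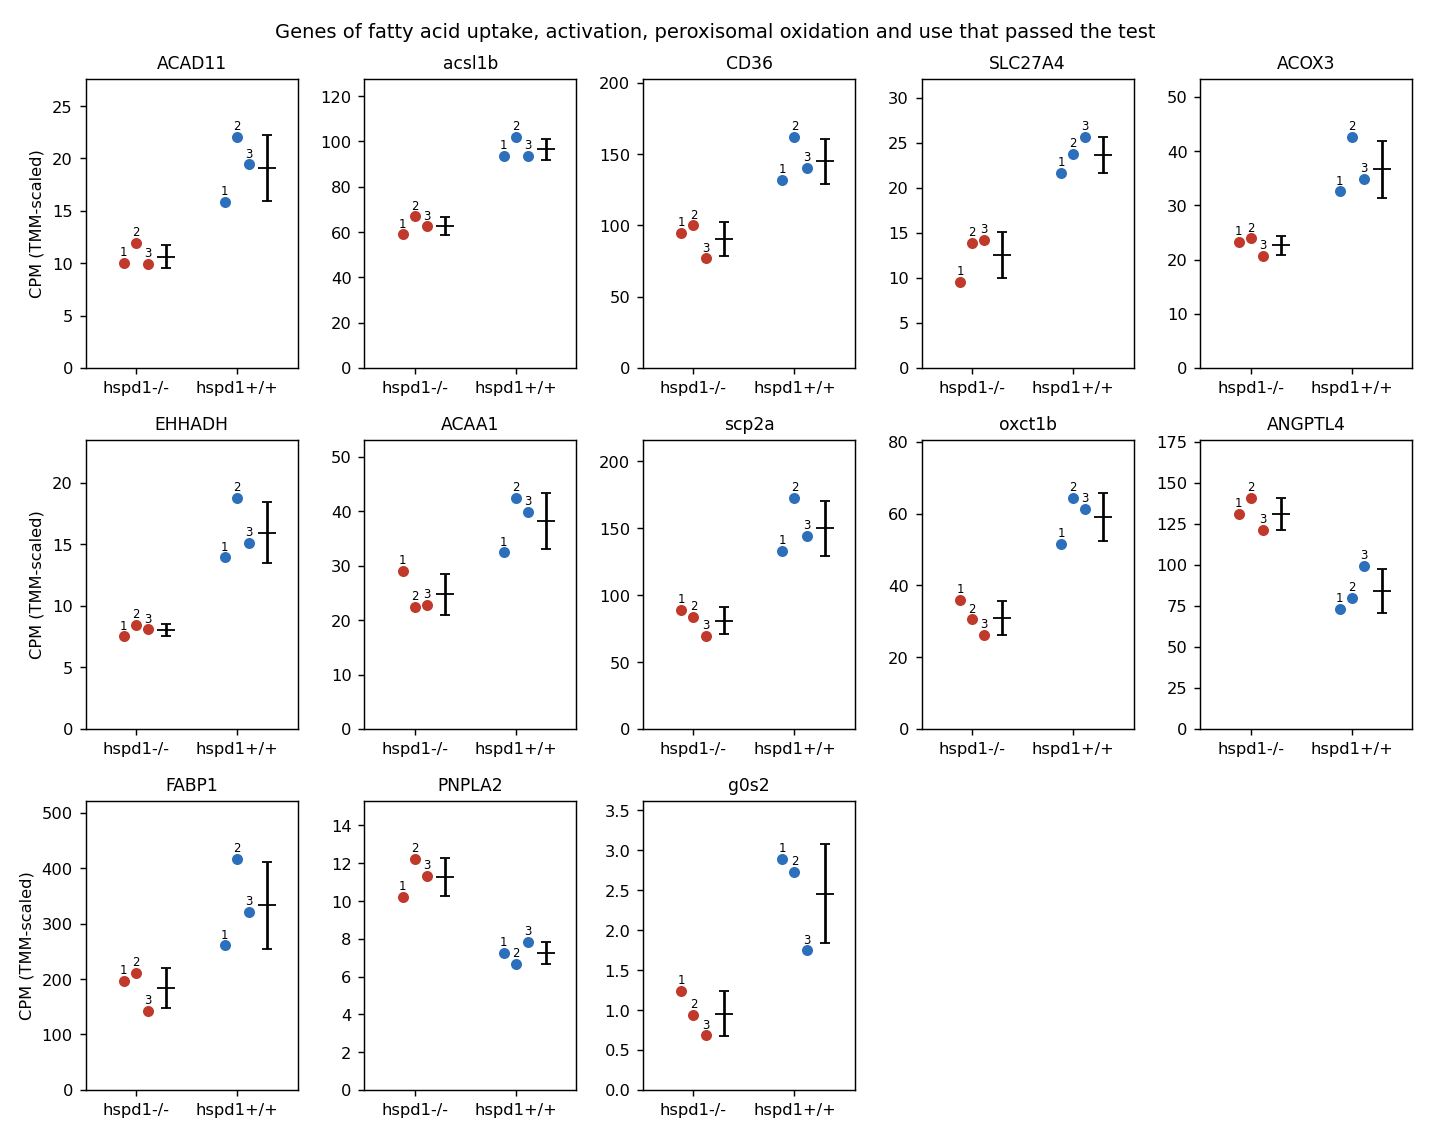
TMM-scaled CPM in each pool (points, numbered by pool; vertical axes start at 0) of 13 genes of uptake, activation, oxidation and PPAR-linked lipid use that passed the test, with mean and SD per genotype in black. Knockout pools are below all controls in 11 of the 13 genes and above them in ANGPTL4 and PNPLA2. Over all genes tested, 10.6% had all knockout pools lower and 10.8% all higher. These genes were drawn because they passed, so their lack of overlap is no further evidence. HSD17B4, HMGCS1 and PDK2 also passed and are not drawn.

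Of 28 tested regulators other than PPARGC1A, none passed the edgeR test. At an unadjusted p under 0.05, 1 was higher (6.79% of all genes) and 4 lower (8.81% of all genes). limma-voom called 0, and DESeq2 called 1 lower, ACACA, an acetyl-CoA carboxylase (named after its values were seen), which stood at a log2 difference of −0.41 (edgeR adjusted p = 0.0831). Of the PPAR alpha genes, pparaa averaged 10.1 ± 0.619 CPM in knockout pools and 10.6 ± 1.43 CPM in control pools, and PPARA averaged 3.83 ± 0.438 CPM in knockout pools and 4.08 ± 0.709 CPM in control pools (SD, n = 3 each). The coactivator gene ppargc1b had 75.2, 77.6 and 107 CPM in knockout pools 1, 2 and 3, against 89.1, 80.0 and 90.9 CPM in control pools 1, 2 and 3, with overlapping groups (log2 difference −0.00146, 95% interval −0.32 to 0.31).

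The list of other PPAR-linked genes split, with 3 of 16 higher and 3 lower in edgeR's test, against 1.47% of all genes higher and 2.54% lower. There were 3 higher and 2 lower in DESeq2 and 2 higher and 2 lower in limma-voom. ANGPTL4, a secreted inhibitor of lipoprotein lipase, had 131, 141 and 121 CPM in knockout pools 1, 2 and 3, against 73.3, 79.9 and 99.3 CPM in control pools 1, 2 and 3 (log2 fold change 0.64, SE 0.13, edgeR adjusted p = 0.0187). PNPLA2, the lipase that starts the breakdown of stored triglyceride, had 10.2, 12.2 and 11.3 CPM in knockout pools 1, 2 and 3, against 7.26, 6.66 and 7.84 CPM in control pools 1, 2 and 3 (log2 fold change 0.63, SE 0.13, edgeR adjusted p = 0.0206). The gene g0s2, which codes for an inhibitor of that lipase in mammals, fell by 1.35 on the log2 scale (SE 0.29, edgeR adjusted p = 0.0268). Its level was low, at 1.24, 0.941 and 0.683 CPM in knockout pools 1, 2 and 3, against 2.89, 2.73 and 1.75 CPM in control pools 1, 2 and 3. FABP1 (ENSDARG00000059227), a fatty acid-binding protein, fell by 0.86 (SE 0.19, edgeR adjusted p = 0.0283). ANGPTL4 was not called without control pool 2 or knockout pool 2 (edgeR adjusted p = 0.0838 and 0.0934), nor PNPLA2 without control pool 2 or knockout pool 2 or 3 (0.0566 to 0.0935) or with the replicate block (0.059). The call of g0s2 was lost without control pool 1 or 2 or knockout pool 2 or 3 (edgeR adjusted p = 0.08 to 0.099). FABP1 passed in only 1 of the 6 fits that left out 1 pool, the one without control pool 1, and otherwise had an edgeR adjusted p of 0.0521 to 0.113.

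The other calls of this list, named after their values were seen, were PDK2 (ENSDARG00000020876), an inhibitory kinase of pyruvate dehydrogenase (log2 fold change 0.51, edgeR adjusted p = 0.0469), and HMGCS1 (−1.85, edgeR adjusted p = 0.0405), an enzyme of cholesterol synthesis with 40.2, 58.7 and 44.2 CPM in knockout pools 1, 2 and 3, against 91.2, 333 and 94.1 CPM in control pools 1, 2 and 3, so that control pool 2 stood apart. Without control pool 2 the log2 fold change of HMGCS1 was −0.95 (edgeR adjusted p = 0.00824). HMGCS1 was not called by DESeq2 (adjusted p = 0.0654) or limma-voom (0.0646), nor by edgeR without knockout pool 1, 2 or 3 (adjusted p = 0.081 to 0.135). PDK2 was not called by limma-voom (adjusted p = 0.0514), with the replicate block (edgeR adjusted p = 0.103), or without control pool 2 or 3 or knockout pool 1 or 2 (edgeR adjusted p = 0.0724 to 0.2). A second gene with the symbol PDK2 (ENSDARG00000059054), also named after its values were seen, was not called (log2 difference 0.95, edgeR adjusted p = 0.124). Its groups overlapped, at 64.0, 156 and 125 CPM in knockout pools 1, 2 and 3, against 72.9, 40.7 and 65.4 CPM in control pools 1, 2 and 3. PDK4, a related kinase known to rise in fasting, was not called (log2 difference 0.17, edgeR adjusted p = 0.555). No gene of the list rose without control pool 2 or knockout pool 2, and none fell without knockout pool 2 or 3. Without knockout pool 3 or control pool 3, 2 genes rose, and without control pool 2 or knockout pool 1, 1 gene fell.

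The tissue markers moved in part with these lists. Of 14 hepatocyte markers, 12 fell, against 2.54% of all genes, and the summed level of the 14 was 1899 to 2785 CPM in knockout pools and 5764 to 6908 CPM in control pools. Of 12 enterocyte markers, 6 fell, against the same 2.54%, with a summed level of 1681 to 2414 CPM in knockout pools and 2959 to 4422 CPM in control pools. No marker was at 0 in all pools. The part of these tissues in the lower levels of peroxisomal, uptake and ketone body genes was not tested. The 19 fast muscle markers summed to 62913 to 77247 CPM in knockout pools and 62610 to 74556 CPM in control pools. None of them passed the edgeR test, nor did any of 7 slow muscle or 12 kidney tubule markers. The summed slow muscle level was 2121 to 2536 CPM in knockout pools and 1822 to 2033 CPM in control pools. Every knockout pool was thus above every control in that sum. At an unadjusted p under 0.05, 1 fast muscle marker was lower, 1 slow muscle marker higher and 1 lower, and 1 kidney marker lower. Over all genes, 6.79% were higher and 8.81% lower at that p. Of these markers, only the kidney marker, CUBN, was called by DESeq2. Among 12 heart markers, 4 were higher and 0 lower at an unadjusted p under 0.05, against 6.79% of all genes higher. Of 12 heart markers 1 rose, against 1.47% of all genes. It was the gene with the symbol myh6 in lower case (ENSDARG00000090637, log2 fold change 0.59, edgeR adjusted p = 0.0328). This gene passed in none of the 6 fits that left out 1 pool. Genes with the symbol MYH6 in capitals (ENSDARG00000079564 and ENSDARG00000114031) were also in the heart list and were not called. The summed heart level was 360 to 434 CPM in knockout pools and 293 to 353 CPM in control pools. Genes with the symbol TNNI1 counted in both the slow muscle and the heart sums. The part of heart and slow muscle in the levels of CPT1B and cpt1ab was not tested.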

How the data were processed

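The authors deposited 1 file of estimated counts per pool, written without decimals. Per the labels' protocols, libraries were poly(A)-selected, non-stranded and paired-end, with reads of 100 bases, and pooling was repeated for 3 mating sets. Salmon, DESeq2, FastQC and Trim Galore, and the build GRCz11, are named in the submitters' processing notes. Versions and the role of each tool are not given in the sources used here. Rounding changed nothing, and no pair of pools of a genotype agreed within counting noise (chi-square per degree of freedom 7.42 to 21.4). A table of IDs and symbols named 23598 of 25859 genes. List symbols were matched in it, then through synonyms of the RefSeq annotation of GRCz12tu, then by the symbol without its last letter. 8 of 161 written symbols other than the 10 genes matched nothing. No sequences or coordinates of the build were used here. Without strand, reads of overlapping genes cannot be told apart.

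Genes were kept by filterByExpr (21602) and scaled by TMM. edgeR 4.0.16 in R 4.3.3 tested genotype as the only term, with a threshold of 0.05. The SE is the size of the log2 fold change divided by the root of F, and 95% intervals use the test's total degrees of freedom. Ratios used 0.5 reads added to each count, and log CPM a prior count of 2. The test was also run on simulated data. Alternatives were RLE and upper-quartile scaling, keeping all genes with reads, keeping genes with at least 1 CPM in 3 pools, a replicate block, a threshold of 0.01, leaving out single pools, DESeq2 1.42.0 and limma-voom (limma 3.58.1). The 10 genes and the lists were chosen with earlier results of these data known. Beside the 10, named genes are HSPD1, up to 4 called genes per list by smallest p, 15 preset genes and 3 most similar genes for each of the 2 with the smallest p. Of these, 3 genes are not reported here. Further genes are marked as named after their values were seen. Labels do not say that pools of equal replicate number are related. The edgeR p-values set the genotype difference against the spread between these pools, with estimates of spread shared between genes.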

Additional observations from a re-analysis of the deposited data

How the results depend on the processing

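Of 140 values of the 10 genes under other settings, 122 kept direction and side of the threshold. The cpt1ab log2 fold change ranged from 0.58 to 0.72 without 1 pool and that of CPT1B from 0.33 to 0.52. CPT1B was past the threshold with upper-quartile scaling (0.48), which gave 2 higher genes among the 10, and without 1 pool that count was 0 to 2. Genes near 0 changed sign without passing: cpt1aa (0.0379) and acadm (0.0489) with upper-quartile scaling, and acadm with a filter of 1 CPM (6.7e-04) or no filter (0.00802). Without 1 pool, cpt1aa ran from −0.0388 to 0.0179, acadm from −0.0532 to 0.0943 and ETFDH from −0.0389 to 0.101. Among the named genes, ACADS changed sign with upper-quartile scaling (7.6e-04), and ppargc1b with a filter of 1 CPM (7.5e-04), no filter (0.00483) or upper-quartile scaling (0.0436). Without 1 pool, ACADS ran from −0.147 to 0.0440, HADHA from −0.0234 to 0.114, ETFB from −0.0461 to 0.126, ppargc1b from −0.168 to 0.0885, pparaa from −0.118 to 0.0636 and PPARA from −0.219 to 0.00499. Upper-quartile scaling moved the median of all genes by 0.05. Of the 13 pathway genes past the threshold that were named by the rule above, 7 passed in each of the 6 fits that left out 1 pool. HSD17B4, HMGCS1 and PDK2, named after their values were seen, are not among the 13. They passed in 2, 3 and 2 of the 6 fits.

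An adjusted p of 0.01 left 156 higher and 288 lower genes of 317 and 549, 3 lower peroxisomal genes, and 0 higher and 0 lower PPAR-linked genes and 0 heart markers. Without 1 pool, 189 to 346 genes were higher and 360 to 635 lower. Peroxisomal genes lower then numbered 3 to 5, with a median of −0.38 to −0.18. PPAR-linked genes numbered 0 to 4 higher and 0 to 2 lower, heart markers 0, and the median of regulators was −0.145 to −0.0566. DESeq2 called 1 regulator and 1 kidney marker lower, where edgeR called 0.

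Deviations of same-numbered pools from their genotype means had correlations of −0.20, 0.10 and −0.07 for numbers 1, 2 and 3. Pools of unlike number gave −0.17 to 0.22. With 3 pools per group, these values cannot show whether equal numbers mark pairs. The main test did not treat the numbers as pairs. With the replicate block, 1 PPAR-linked gene was higher and 0 heart markers were, 4 peroxisomal genes were lower (ACAA1 was not called), cpt1ab remained past the threshold (log2 fold change 0.62, edgeR adjusted p = 0.0287), and the 4 ratios, as differences within numbers, gave a smallest possible p of 0.25 in an exact sign-flip test. The cause of these changes was not tested. For the 7 of the 10 genes whose 95% interval spans 0, any difference within that interval remains possible. With 3 pools per group, larger differences could also go uncalled. CPT1B at a log2 difference of 0.43 and CPT2 at −0.38 were not called.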
